A study of Mus musculus with 26 samples.

Results

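Collagen genes were followed in the adipocytes and the stromal vascular cells (SVC) of mouse epididymal fat. A gene was taken as a collagen gene when its symbol in both tables of counts was Col, a number, the letter a and a number with no other ending, which gave 44 of 39017 genes. They were sorted by the kind of assembly their chains form into 11 fibrillar, 6 basement membrane (type IV), 6 beaded filament (type VI), 9 fibril-associated, 4 transmembrane, 3 short-chain and 2 multiplexin genes, 1 anchoring fibril gene and 2 others.

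Male wild type C57BL/6J mice were 9 to 10 weeks old at the start and were fed for 12 weeks on food of 10% fat (LFD) or 60% fat (HFD), while a switched group (SW) ate the HFD over 9 weeks and the LFD over the last 3. Fat pads were digested with collagenase and separated by centrifugation, and the SVC were treated with a red cell lysis buffer. RNA was sequenced, and the sample labels name 3 replicates per diet in each fraction. There are 26 records, some paired-end and some single-end, and several replicates have a record of each kind. All adipocyte SW records are paired-end, while SVC HFD replicates 1 and 3 have single-end records alone. Which layout a column of counts holds is not given, so the part of layout in the values was not tested. The columns of counts used here were 9 adipocyte libraries, 3 per diet, and 6 SVC libraries, 1 from LFD, 2 from HFD and 3 from SW mice. Another 3 columns of values match no group by name and were not used, so labelled LFD and HFD replicates of SVC are missing here. Libraries are named here by the number of their column, and whether both fractions came from the same mice is not given for these columns. The study asked which changes made by the HFD remain after weight loss.

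Total counts ran from 5781902 to 23725647 per library. The pair of SVC HFD libraries stood apart from each other, with mitochondrial transcripts at 6.34% of counts in number 212 and 33.5% in number 411, and hemoglobin transcripts at 0.287% and 3.09%. The adipocyte marker Adipoq lay between 795 and 4371 CPM (counts scaled to library size, within a fraction) in the adipocyte libraries and between 12.8 and 68.5 CPM in the SVC libraries. The macrophage marker Csf1r reached 2562 CPM in SVC. Endothelial markers were not a feature of the SVC alone, since Pecam1 lay at 193 to 489 CPM in the adipocyte libraries and at 49.3 to 107 CPM in SVC. No defining marker of adipocytes, fibroblasts, mesothelial cells, endothelial cells, pericytes or macrophages was at 0 in a library, so both fractions held transcripts of other cell types.

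Collagens are the main structural proteins of the extracellular matrix. Fibrillar chains such as those of types I, III and V assemble into banded fibrils, type IV chains form the sheet-like network of the basement membrane that wraps each adipocyte and blood vessel, and type VI chains form beaded filaments between them. In fat, most fibrillar collagen is made by fibroblasts and adipocyte progenitors, while adipocytes and endothelial cells make type IV collagen, and type VI collagen is abundant in adipose tissue.

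Several collagen genes lie beside another member on a chromosome. In the GENCODE annotation of the mouse genome GRCm38, which was not the build that the submitters' notes name, Col4a1 (chr8:11198423-11312826, minus strand) and Col4a2 (chr8:11312805-11449287, plus strand) start head to head and overlap by 22 bases. Col4a3 and Col4a4 on chromosome 1 face each other across 71 bases, and Col4a5 and Col4a6 on chromosome X across 1308 bases. Col3a1 (chr1:45311538-45349706, plus strand) and Col5a2 (chr1:45374321-45503282, minus strand) end toward each other 24.6 kb apart. Col6a6, Col6a5 and Col6a4 follow one another on the minus strand of chromosome 9, and Col6a2 and Col6a1 lie on the minus strand of chromosome 10, 85.2 kb apart. The values of neighbours are given together in the text where both were measured.

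The bases just upstream of the start site are shown for 4 members that moved together between the diets in adipocytes and for Col5a3, a fibrillar gene that did not pass the test in either comparison. These were members whose start site was the same in the RefSeq and GENCODE annotations. Each line holds the 150 bases before the RefSeq start (GRCm38.p6), read 5′ to 3′ on the strand of the gene, and capitals mark the TATA box letters TATAAA, the CCAAT box letters and the GC box letters GGGCGG, on either strand and without overlap.
Col3a1, chr1:45311388-45311537, plus strand: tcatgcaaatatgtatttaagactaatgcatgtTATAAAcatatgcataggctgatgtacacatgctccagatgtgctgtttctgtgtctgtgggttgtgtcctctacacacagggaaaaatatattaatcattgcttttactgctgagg
Col5a1, chr2:27886275-27886424, plus strand: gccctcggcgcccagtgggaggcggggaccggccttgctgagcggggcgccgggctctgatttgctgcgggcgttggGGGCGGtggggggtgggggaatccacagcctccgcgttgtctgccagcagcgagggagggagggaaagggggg
Col6a5, chr9:105960644-105960793, minus strand: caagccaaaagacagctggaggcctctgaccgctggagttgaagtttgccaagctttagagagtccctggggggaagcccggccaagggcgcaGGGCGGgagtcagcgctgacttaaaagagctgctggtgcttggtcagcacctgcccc
Col8a1, chr16:57754738-57754887, minus strand: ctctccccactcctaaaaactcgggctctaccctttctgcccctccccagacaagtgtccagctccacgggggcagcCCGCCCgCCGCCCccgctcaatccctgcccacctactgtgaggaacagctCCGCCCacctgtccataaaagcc
Col5a3, chr9:20815068-20815217, minus strand: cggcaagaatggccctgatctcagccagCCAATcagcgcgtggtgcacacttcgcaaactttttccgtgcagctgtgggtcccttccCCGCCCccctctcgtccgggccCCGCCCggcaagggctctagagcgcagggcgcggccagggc
The Col3a1 window holds TATAAA and no GC box letters, the Col5a1, Col6a5 and Col8a1 windows hold GGGCGG or its complement, and the Col5a3 window holds both CCAAT and the GC box letters. In the table of RefSeq promoters used here, 35 collagen genes had an entry. Within the 250 bases before any of its starts, GGGCGG was found for 21 of these genes (60.0%) and for 35.4% of all 27025 genes in the table. CCAAT was found for 13 (37.1%) against 37.5% of all genes, and TATAAA for 5 (14.3%) against 14.3%. A match is a run of letters and was not tested as a binding site.

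Collagen transcripts made up a larger part of the adipocyte RNA in HFD mice than in LFD or SW mice. They took 0.688%, 0.504% and 0.378% of the counts in LFD 404, 405 and 406, 1.33%, 1.07% and 1.25% in HFD 401, 402 and 403, and 0.479%, 0.558% and 0.617% in SW 407, 408 and 409. All 3 HFD libraries lay above the other 6, and the SW range lay within the LFD range. In bulk RNA of this kind, more cells of a type and more RNA per cell cannot be told apart. Of the 44 genes, 32 had enough counts to be tested in adipocytes. The other 12 were Col2a1, Col6a4, Col9a1, Col9a2, Col9a3, Col10a1, Col11a1, Col13a1, Col19a1, Col24a1, Col25a1 and Col26a1, many of them known from cartilage, and none of them exceeded 21 counts in an adipocyte library.

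Between HFD and LFD adipocytes, 17 collagen genes were higher, 3 were lower and 12 did not pass an adjusted p of 0.05 (quasi-likelihood test of edgeR, Benjamini-Hochberg adjusted over 14461 genes). Of all genes tested, 26.5% were higher and 25.0% were lower. The median log2 fold change was 0.68 over the 32 collagen genes tested and -0.03 over all genes. Because a gene can pass a filter on low counts through the group in which it is high, the 23 collagen genes with at least 10 counts in every adipocyte library were also taken alone, and 16 of them were higher. In the fit of all genes under that filter, 3266 of 12157 were higher.

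**Figure D1:**
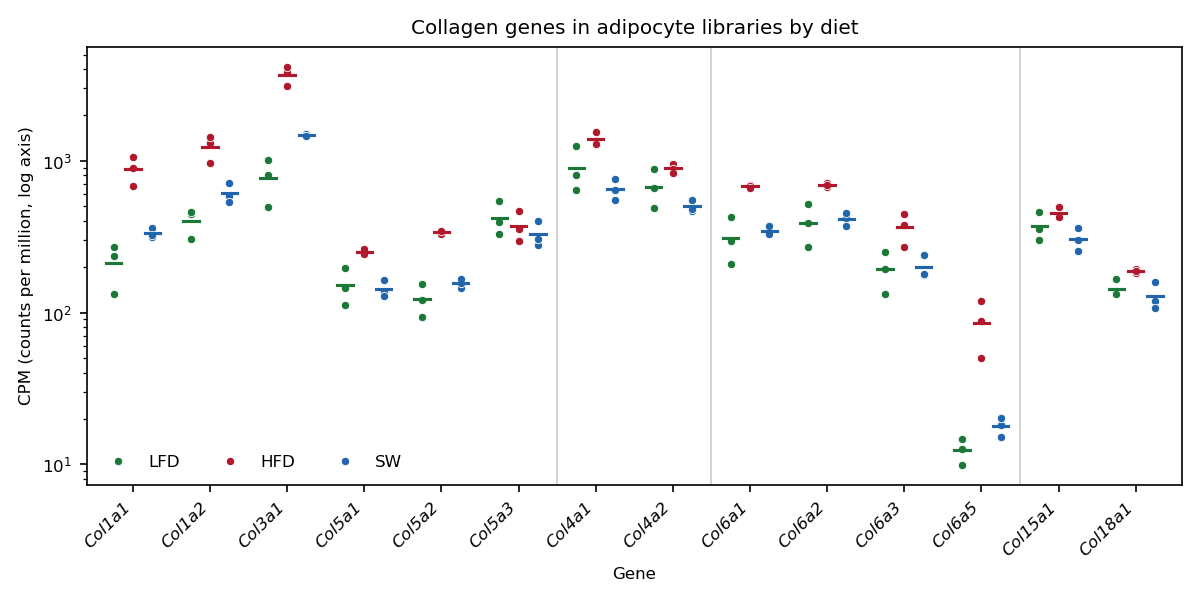
CPM (counts scaled to library size, log axis) of 14 collagen genes in the 9 adipocyte libraries, coloured by diet, with a point per library and a bar at the group mean of 3. Vertical lines divide fibrillar, basement membrane, beaded filament and multiplexin genes. The 3 HFD points lie above all LFD and SW points for every gene shown but Col5a3, Col4a2 and Col15a1. The share of all genes with such points was not counted.

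The chains of the major fibrils rose the most among the abundant members. Col3a1 encodes the chain of type III collagen, and its CPM were 1007, 803 and 496.5 in LFD, 3838, 3101 and 4152 in HFD, and 1503, 1462 and 1463 in SW adipocytes. Its HFD libraries were all above the others, and its SW libraries were all above the LFD libraries. The log2 fold change (log2FC) of HFD against LFD was 2.27 (standard error, SE, 0.26, adjusted p = 9.27e-05, edgeR), a 4.81-fold difference. Col1a1, the α1 chain of type I collagen, was at 271, 235 and 132 CPM in LFD, 889.7, 679 and 1065 in HFD, and 362, 316 and 326 in SW adipocytes. Its log2FC of HFD against LFD was 2.05 (SE 0.27, adjusted p = 0.000202, edgeR). Col1a2, its α2 partner, was at 443, 460 and 305 CPM in LFD, 1311, 965 and 1427 in HFD, and 718, 588 and 535.5 in SW adipocytes. The order of the groups was that of Col1a1, without overlap, and Col1a2 rose by a log2FC of 1.62 (SE 0.22).

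Type V collagen forms the core of fibrils, and its chains did not move alike. Col5a2 was at 155, 120 and 92.8 CPM in LFD, 342, 327 and 342 in HFD, and 145, 157 and 166 in SW adipocytes. The HFD libraries were apart from the rest, and Col5a2 rose by 1.46 on the log2 scale (SE 0.17), beside its chromosome neighbour Col3a1. Col5a1 was at 197, 144 and 113 CPM in LFD, 244, 243 and 263 in HFD, and 137, 128 and 165 in SW adipocytes. It rose by 0.73 on the log2 scale (SE 0.19, adjusted p = 0.00999, edgeR). Col5a3, the third chain, was at 540, 393 and 327 CPM in LFD, 296, 470 and 354 in HFD, and 279, 307 and 403 in SW adipocytes. Its groups overlapped, and its log2FC of HFD against LFD was -0.17 (SE 0.24, adjusted p = 0.574, edgeR). Of the remaining fibrillar genes, Col27a1 rose by a log2FC of 0.76, with 3.71 to 4.28 CPM in LFD and 5.84 to 7.44 CPM in HFD adipocytes, and Col11a2, at 0.501 to 1.37 CPM in all groups, had a log2FC of -0.27 and did not pass.

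The abundant basement membrane chains Col4a1 and Col4a2 did not pass the test with the HFD. Col4a1 was at 1247, 811 and 637.5 CPM in LFD, 1550, 1344 and 1288 in HFD, and 550.5, 638.5 and 761 in SW adipocytes. Its 3 HFD libraries lay above the LFD libraries, but the log2FC of 0.63 (SE 0.25) had an adjusted p of 0.0519 in edgeR and did not pass. Col4a2, transcribed from the facing promoter, was at 876.5, 657 and 489 CPM in LFD, 952, 881 and 835 in HFD, and 468, 483 and 551 in SW adipocytes. Its LFD and HFD libraries overlapped, and its log2FC was 0.40 (SE 0.21, adjusted p = 0.128, edgeR). Of the minor type IV chains, Col4a5 rose by 0.60 on the log2 scale (adjusted p = 0.0386, edgeR), while its neighbour Col4a6 and the pair Col4a3 and Col4a4, all under 4 CPM in adipocytes, had log2FCs of -0.39, -0.28 and -0.87 and did not pass. The call of Col4a5 was lost without any of 5 libraries (LFD 405, LFD 406, HFD 401, HFD 403 or SW 409), where its adjusted p reached 0.108.

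Every beaded filament gene tested was higher in HFD adipocytes, 5 of 5. Col6a1 was at 425.5, 298 and 209.8 CPM in LFD, 692, 681 and 662 in HFD, and 331, 330.1 and 373 in SW adipocytes. Its log2FC of HFD against LFD was 1.13 (SE 0.22), with HFD libraries apart from all others. Col6a2, its neighbour on chromosome 10, was at 516, 387 and 272 CPM in LFD, 669.9, 715 and 688 in HFD, and 419, 369 and 452 in SW adipocytes, and rose by 0.82 (SE 0.21). Col6a3, whose chain joins these in the trimer, was at 249.8, 194.5 and 132 CPM in LFD, 443, 270.1 and 379 in HFD, and 240.3, 176 and 179.6 in SW adipocytes, and rose by 0.92 (SE 0.25). The chains that can replace it were much lower and changed more. Col6a5 was at 12.7, 14.8 and 9.89 CPM in LFD, 119, 50.3 and 88.3 in HFD, and 15.1, 18.2 and 20.3 in SW adipocytes. Its log2FC of 2.77 (SE 0.30, adjusted p = 6.22e-05, edgeR) was the largest rise of a collagen gene in adipocytes. Col6a6 was at 1.90, 1.39 and 0.923 CPM in LFD, 11.0, 5.47 and 10.5 in HFD, and 0.841, 2.76 and 2.50 in SW adipocytes, with a log2FC of 2.68 (SE 0.44). Per kilobase of transcript, the ratio of Col6a5 to Col6a3 was 0.0553 to 0.0825 in LFD, 0.203 to 0.292 in HFD and 0.0685 to 0.123 in SW adipocytes, a ratio that was chosen after the values were seen.

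Of the fibril-associated genes, 3 were higher, 1 was lower and 1 did not pass. Col14a1, whose product binds fibril surfaces, rose by 1.64 on the log2 scale (SE 0.21) from 17.8 to 31.2 CPM in LFD to 61.2 to 93.1 CPM in HFD adipocytes. Col12a1, of the same kind, was at 12.7, 5.83 and 3.82 CPM in LFD, 16.4, 25.1 and 21.1 in HFD, and 5.26, 4.99 and 8.16 in SW adipocytes, and rose by 1.54 (SE 0.36). Col16a1 rose by 0.79, and Col20a1, under 1.4 CPM, had a log2FC of -0.25. Col22a1, known from tissue junctions, was lower in HFD adipocytes by a log2FC of -1.43 at 3, 5 and 4 counts in the HFD libraries and 3, 15 and 2 in the LFD libraries. The short-chain gene Col8a1, whose product forms networks around vessels, was at 18.4, 14.9 and 13.5 CPM in LFD, 43.8, 32.0 and 44.3 in HFD, and 13.8, 15.6 and 16.0 in SW adipocytes, and rose by 1.37 (SE 0.17). Col8a2, its partner, rose by 1.53 (SE 0.48) from 0.527 to 1.19 CPM in LFD to 1.17 to 4.21 CPM in HFD adipocytes, and that call was lost without LFD 406, HFD 401 or HFD 403, with an adjusted p up to 0.0817.

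The multiplexins of the basement membrane zone did not pass. Col15a1 was at 459.7, 354 and 302 CPM in LFD, 439, 497 and 426 in HFD, and 302, 255.5 and 362 in SW adipocytes, and its log2FC of HFD against LFD was 0.29 (adjusted p = 0.227, edgeR). Col18a1, the precursor of endostatin, was at 167, 133 and 132 CPM in LFD, 182, 193 and 187 in HFD, and 119, 108 and 159.9 in SW adipocytes, and its log2FC was 0.38 (adjusted p = 0.0718, edgeR). Both transmembrane genes tested were lower in HFD adipocytes. Col17a1, of epithelial anchoring, was at 1.27, 1.44 and 0.923 CPM in LFD, 0.451, 0.209 and 0.447 in HFD, and 0.210, 0.360 and 0.787 in SW adipocytes, which is at most 28 counts in a library. Its log2FC was -1.76 (SE 0.49). Col23a1 was at 5.87, 5.52 and 7.38 CPM in LFD, 4.28, 3.55 and 4.65 in HFD, and 4.42, 3.48 and 5.29 in SW adipocytes, with a log2FC of -0.58 (SE 0.22). The 3 calls of lower genes rested on single libraries. That of Col23a1 was lost without any of the 9, that of Col17a1 without LFD 405 or HFD 402, and that of Col22a1 without LFD 404, HFD 401 or SW 409, with adjusted p up to 0.174, 0.0726 and 0.0753 (edgeR). Col7a1, the anchoring fibril gene, and Col28a1 had log2FCs of -0.06 and 0.30 and did not pass.

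**Figure D2:**
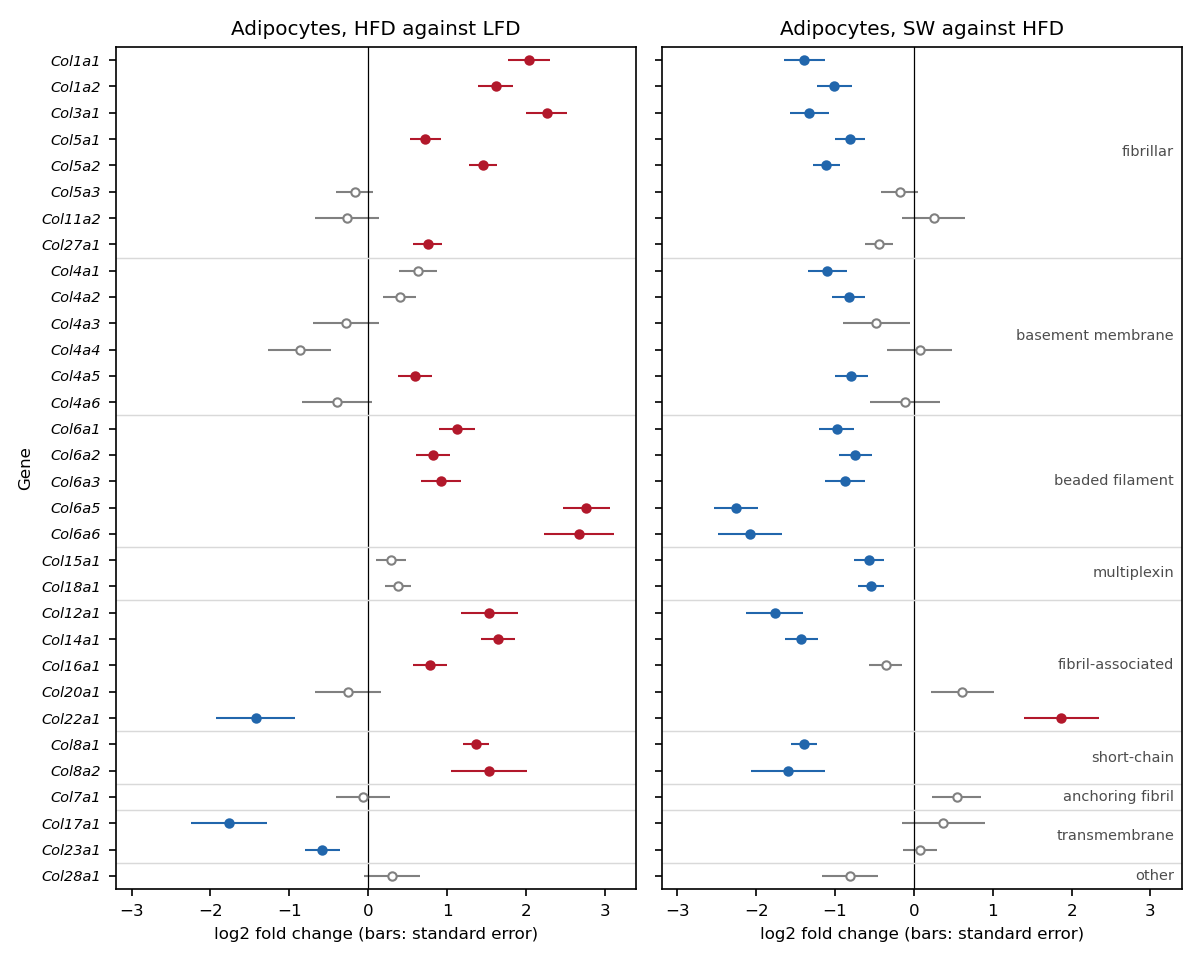
Log2 fold changes of the 32 collagen genes tested in adipocytes, for HFD against LFD on the left and SW against HFD on the right, with bars of 1 SE and genes ordered by class. Filled points passed an adjusted p of 0.05 (red higher, blue lower) and open points did not, and 15 genes are red on the left and blue on the right.

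After the switch to the LFD, most collagen genes that passed were lower. Of the 32 tested, 19 were lower in SW than in HFD adipocytes, 1 was higher and 12 did not pass, where 15.9% of all genes tested were lower and 15.6% higher. The median log2FC was -0.80 over these genes and 0.01 over all genes. The comparison shares its HFD libraries with that of HFD against LFD, and 15 of the 32 genes were both higher in HFD than LFD and lower in SW than HFD, as were 13.7% of all genes tested. By class, 5 fibrillar, 3 basement membrane, 5 beaded filament, 2 multiplexin, 2 fibril-associated and 2 short-chain genes were lower. The number of lower genes was 12 without HFD 403, where lower genes of all tested fell too, from 2294 of 14461 to 895 of 14757.

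The largest falls were those of Col6a5, by a log2FC of -2.25 (SE 0.28, adjusted p = 0.00272, edgeR), Col6a6, by -2.08 (SE 0.41), and Col12a1, by -1.77 (SE 0.36). The fibril chains fell by 1.39 for Col1a1, 1.01 for Col1a2, 1.33 for Col3a1, 1.11 for Col5a2 and 0.81 for Col5a1 on the log2 scale. Col4a1 (-1.10, SE 0.25) and Col4a2 (-0.83, SE 0.21) passed here although they had not with the HFD, and their SW libraries were all below their HFD libraries. Col15a1 (-0.57, adjusted p = 0.0449) and Col18a1 (-0.54, adjusted p = 0.0313, both edgeR) fell as well, and these calls were lost without any of 6 and 5 libraries, respectively, among them each HFD library. Col6a1, Col14a1 and Col8a1 fell by 0.98, 1.43 and 1.40 on the log2 scale and passed with every library left out in turn. Col6a2, Col6a3, Col5a1, Col4a5 and Col8a2 did not pass without HFD 403, nor, except for Col5a1, without HFD 401. Some alternative fits that kept every library also lost the calls of Col5a1, Col6a2, Col6a3, Col15a1 and Col18a1. Col22a1 rose by 1.87 (SE 0.47) to 5, 12 and 14 counts, a call lost without HFD 401 or SW 409. Col5a3 had a log2FC of -0.18 and again did not pass.

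Between SW and LFD adipocytes, Col3a1 alone passed, with a log2FC of 0.94 (SE 0.25, adjusted p = 0.0271, edgeR), a 1.92-fold difference. Higher genes were 10.9% and lower genes 6.18% of all genes tested, against 1 and 0 of the 32 collagen genes, whose median log2FC was -0.02. All 3 SW libraries of Col3a1 lay above the LFD libraries, but the call was lost without LFD 405, LFD 406 or any of the SW libraries, with an adjusted p up to 0.0737. Col1a1 (0.65, adjusted p = 0.112) and Col1a2 (0.61, adjusted p = 0.0843, both edgeR) had SW libraries above the LFD libraries as well, and did not pass. Col4a1 and Col4a2 had log2FCs of -0.47 and -0.43 and did not pass either. With the HFD and SW libraries averaged against LFD, 11 collagen genes were higher and 2 lower, where 20.7% and 19.4% of all genes were. This average shares its libraries with the comparisons above, so a gene can pass through HFD alone. Of these genes only Col3a1 also passed in SW against LFD. Col6a5 lay at 9.89 to 14.8 CPM in LFD, 50.3 to 119 in HFD and 15.1 to 20.3 in SW adipocytes. Col6a6 lay at 0.923 to 1.90, 5.47 to 11.0 and 0.841 to 2.76 CPM. The 3 largest rises were Col6a6 (1.64), Col6a5 (1.64) and Col3a1 (1.60), and the lower genes were Col17a1 (-1.58) and Col23a1 (-0.54). The number of higher genes was 7 without LFD 406, and Col23a1 passed without only 1 of the 9 libraries. Higher genes of all tested fell too without LFD 406, from 2996 of 14461 to 2156 of 14878. The median here was 0.27 over the collagen genes and -0.02 over all genes. No basement membrane gene and neither multiplexin passed in this contrast.

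Markers of other cell types moved with the diets in the same libraries. Of 11 macrophage markers, 10 rose in HFD against LFD adipocytes, with Adgre1 from 25.4 to 35.7 CPM in LFD, 564 to 804 CPM in HFD and 289 to 318 CPM in SW adipocytes. The 11th marker, Lpl, which adipocytes express too, did not pass, with a log2FC of -0.25. The list, Lpl included, summed to 9467 to 9722 CPM in LFD, 14600 to 15820 CPM in HFD and 11340 to 14270 CPM in SW adipocytes. Its median log2FC of HFD against LFD was 3.02, a measure that does not weigh genes by their level as the sum does. Of 9 fibroblast and progenitor markers, Pdgfra and Lum rose, Ly6a fell and 6 did not pass, and the list summed to 2246 to 3033 CPM in LFD, 2728 to 3479 CPM in HFD and 2784 to 3536 CPM in SW adipocytes. Endothelial markers fell, 6 of 8, from sums of 1781 to 2140 CPM in LFD to 804 to 1527 CPM in HFD, and 4 of 7 pericyte and smooth muscle markers fell. Of 8 mesothelial markers 6 fell, from sums of 90.3 to 198 CPM in LFD to 12.6 to 43.4 CPM in HFD, and 5 of 8 adipocyte markers fell. All 4 erythroid markers fell too, from sums of 2116 to 3188 CPM in LFD to 608 to 755 CPM in HFD, and lay at 1309 to 2128 CPM in SW. In SW against HFD adipocytes, 5 of 11 macrophage markers fell, while 3 of 8 adipocyte markers (Adipoq, Lipe and Cfd) and all 4 erythroid markers rose. The part of these shifts in the collagen values was not tested.

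The make-up of the collagen RNA differed between groups as well. Fibrillar genes took 39.1% to 42.1% of the summed collagen CPM in LFD adipocytes, 54.5% to 61.3% in HFD and 50.6% to 55.2% in SW adipocytes. Basement membrane genes took 28.9% to 32.0%, 17.3% to 21.1% and 18.1% to 21.9%. The SW libraries lay nearer to the HFD libraries in these shares, although their summed collagen CPM lay nearer to LFD. Beaded filament genes took 14.7% to 17.99% in all 9 libraries.

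**Figure D3:**
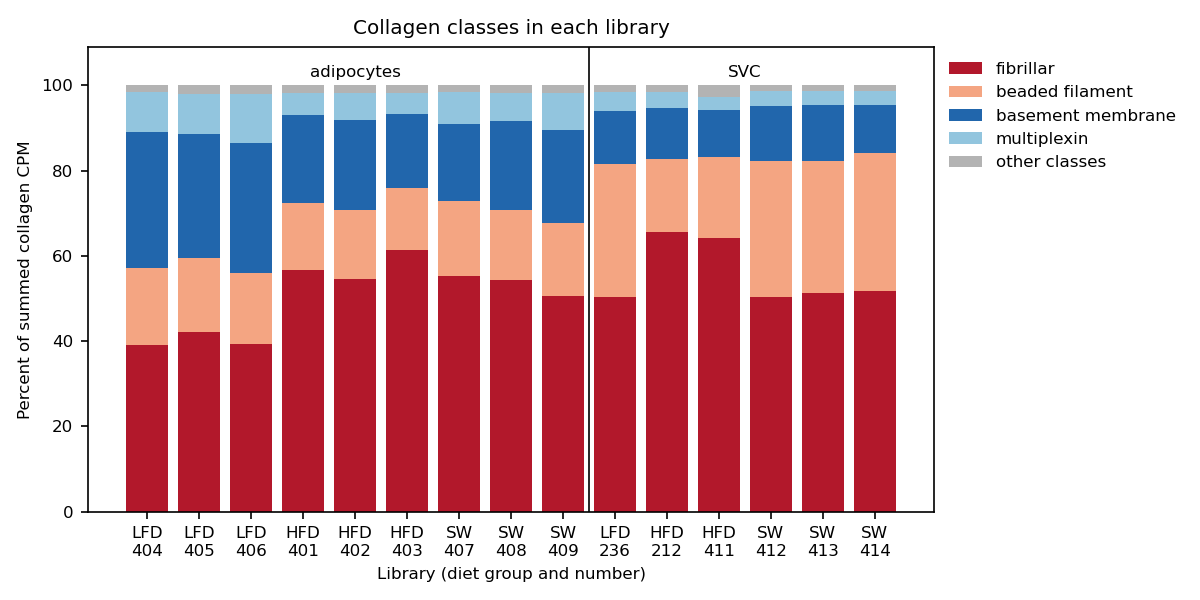
Share of the summed collagen CPM taken by each class, in percent, in the 9 adipocyte and 6 SVC libraries, each bar a library named by diet and number. Basement membrane genes take a larger share in the 3 LFD adipocyte libraries than in any other library, and beaded filament genes take 31.0% to 32.4% of SVC collagen CPM in LFD and SW and 17.1% to 19.1% in HFD.

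Compared per kilobase of transcript, so that levels of different genes can be set side by side, Col3a1 and Col4a1 headed the LFD adipocytes at 138 ± 46.2 and 136 ± 47.5 CPM per kilobase (SD, n = 3). Col4a2, at 105 ± 30.2, was within the spread of both. In HFD adipocytes Col3a1 stood at 665 ± 96.9 CPM per kilobase, above Col1a2 at 231 ± 44.99 and Col4a1 at 211 ± 20.9, which were within their spread of each other. In SW adipocytes the order was Col3a1 (265 ± 4.27), Col1a2 (115 ± 17.6), Col4a1 (98.3 ± 16.0) and Col6a2 (84.2 ± 8.52), and the last 3 were each within the spread of their neighbour. The ratio of Col1a1 to Col1a2 per kilobase was 0.390 to 0.552 in LFD, 0.612 to 0.673 in HFD and 0.455 to 0.549 in SW adipocytes. The ratio of Col4a1 to Col4a2 was 1.20 to 1.39, 1.49 to 1.59 and 1.15 to 1.35, and that of Col6a1 to Col6a2 was 0.922 to 0.988, 1.14 to 1.24 and 0.947 to 1.07, so that the HFD libraries of all 3 pairs lay above the others.

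Genes that fold, process and bind collagens were counted in adipocytes beside the 26.5% of all genes that were higher and the 25.0% that were lower with the HFD, and the 15.6% and 15.9% after the switch. Of 19 tested genes of collagen folding and hydroxylation, 6 rose and 1 fell with the HFD. Plod2, a lysyl hydroxylase whose product is used in fibril cross-links, rose by 1.41 (SE 0.18) and Colgalt1, which adds galactose to hydroxylysine, by 1.35 (SE 0.14), while P4ha2, a prolyl hydroxylase subunit, fell by 0.52. After the switch 5 of the 19 fell and none rose, and in SW against LFD adipocytes Plod2 and Colgalt1 were still higher and P4ha2 lower. Of 7 genes of propeptide processing, Bmp1, Pcolce, Adamts2 and Adamts14 rose with the HFD by 0.96, 1.14, 0.99 and 1.40, and Bmp1 and Adamts2 fell after the switch. Of 10 fibril partners, 6 rose with the HFD, led by Lum (2.16, SE 0.24) and Fn1 (2.05, SE 0.24), and 4 fell after the switch. The 9 basement membrane partners were divided, with Lama2, Lamb1 and Lamc1 higher and Lama5 and Lamb2 lower in HFD adipocytes, and Nid1, Lama2, Lama4 and Lamc1 lower in SW than in HFD. Of 8 collagen receptors tested, Itga11, Ddr2, Lair1 and Mrc2 rose and Itga10 fell with the HFD. Lair1, a receptor of leukocytes, rose by 4.25 (SE 0.31).

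In SVC, collagen transcripts were 3.11% of the counts for LFD 236, 1.93% and 0.764% for HFD 212 and 411, and 1.78%, 2.82% and 1.88% for SW 412, 413 and 414. HFD 411 lay below the 3 HFD adipocyte libraries, and the other 5 lay above every adipocyte library. The HFD and SW libraries of SVC overlapped, since HFD 212 lay above SW 412 and SW 414. With 1 LFD library no comparison with LFD was tested. Of 38 collagen genes with at least 10 counts in an SVC library, that library lay above the 5 other SVC libraries for 25 and below them for 2 (Col11a2 and Col26a1), where it lay above for 21.2% and below for 25.3% of all genes with that many counts. Hemoglobin transcripts were 5.15% of its counts.

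**Figure D4:**
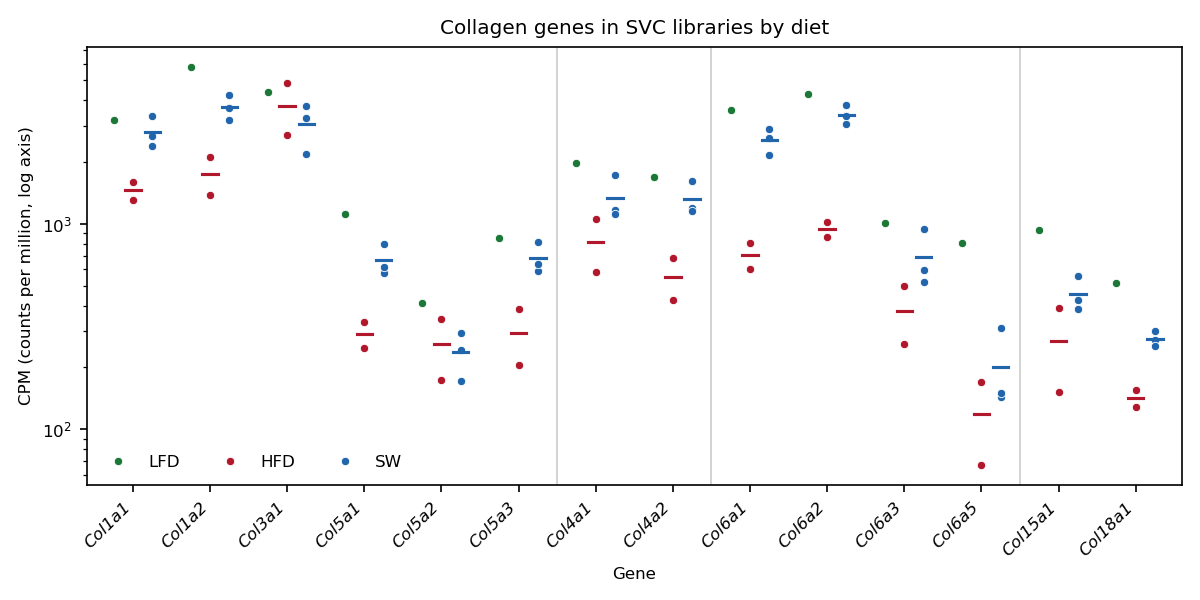
CPM (counts scaled to library size, log axis) of 14 collagen genes in the 6 SVC libraries, coloured by diet, with a point per library and a bar at the mean of the 2 HFD and of the 3 SW libraries. Col1a2, Col5a1, Col5a3, Col4a1, Col4a2, Col6a1, Col6a2, Col6a3 and Col18a1 have both HFD points below all SW points and the LFD point on top. Of these, only Col5a1, Col6a1, Col6a2 and Col18a1 passed the test of SW against HFD. The share of all genes with such points was not counted. The HFD and SW points of Col3a1, Col5a2, Col6a5 and Col15a1 overlap.

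Between SW and HFD mice, 8 of the 38 collagen genes tested in SVC were higher, 1 was lower and 29 did not pass (edgeR, adjusted over 16319 genes, of which 5.71% were higher and 11.7% lower). The median log2FC was 0.82 over the 38 genes and 0.03 over all. These calls depended on single libraries. The number of higher genes was 0 without SW 412 or without SW 413 and 1 without SW 414. Without SW 414, 495 of all 16532 genes tested were higher. Without SW 412 or SW 413 no gene of any kind passed, and over the libraries left out in turn the log2FC of Col6a1 stayed between 1.67 and 2.17 and that of Col4a4 between 2.13 and 2.61. It was also 0 with a correction for the GC content of transcripts, with which again no gene passed and 10 collagen genes had an unadjusted p under 0.05. With the high-mitochondrial library HFD 411 left out, 8 were higher and 3 lower, where 17.4% of all genes tested were higher and 21.7% lower.

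The beaded filament pair moved most among the abundant genes. Col6a1 was at 3592 CPM in the LFD library, 807.5 and 599.5 in HFD, and 2174, 2895 and 2616 in SW SVC, and rose by 1.86 on the log2 scale (SE 0.33, adjusted p = 0.0362, edgeR). Col6a2 was at 4269 CPM in LFD, 1019 and 859 in HFD, and 3060, 3784 and 3341 in SW SVC, and rose by 1.86 (SE 0.32). Both HFD libraries were below every SW library for these genes. Col6a3 was at 1004 CPM in LFD, 497 and 259 in HFD, and 519, 948 and 598 in SW SVC, and its log2FC of 0.87 did not pass. Col6a6 rose by 1.70 (SE 0.40) from 16.3 and 10.8 CPM in HFD to 34.9, 64.6 and 32.1 in SW, with 171 in LFD. Col6a5 was at 811 CPM in LFD, 171 and 67.0 in HFD, and 143, 313 and 151 in SW SVC. Its groups overlapped, and it did not pass.

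Of the fibrillar genes Col5a1 passed, at 1117 CPM in LFD, 333 and 248 in HFD, and 578, 794 and 619 in SW SVC, with a log2FC of 1.19 (SE 0.29, adjusted p = 0.0431, edgeR). Col1a1 was at 3218 CPM in LFD, 1605 and 1310 in HFD, and 2677, 3350 and 2392 in SW SVC, and its log2FC of 0.95 had an adjusted p of 0.0767 in edgeR. Col1a2 was at 5805 CPM in LFD, 2113 and 1378 in HFD, and 3195, 4224 and 3645 in SW SVC, and its log2FC of 1.08 had an adjusted p of 0.0723 in edgeR. Neither pair of groups overlapped, and neither gene passed. Col3a1 was at 4380 CPM in LFD, 4820 and 2703 in HFD, and 2183, 3747 and 3259 in SW SVC, and its HFD and SW libraries overlapped, with a log2FC of -0.30 (adjusted p = 0.595, edgeR). The ratio of Col3a1 to Col1a1 per kilobase, chosen after the values were seen, was 3.64 to 4.92 in all adipocyte libraries, 3.20 and 2.20 in HFD SVC, 0.869 to 1.45 in SW SVC and 1.45 in LFD SVC. Col5a2, the neighbour of Col3a1, was at 411 CPM in LFD, 344 and 175 in HFD, and 171, 295 and 244 in SW SVC, and had a log2FC of -0.13. Col5a3 was at 857 CPM in LFD, 384 and 205.5 in HFD, and 592, 819.6 and 639.6 in SW SVC, with a log2FC of 1.21 and an adjusted p of 0.0585 in edgeR.

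Among basement membrane genes, the minor chains Col4a4 and Col4a6 rose in SVC. Col4a4 was at 20.6 CPM in LFD, 0.870 and 1.24 in HFD, and 4.02, 6.08 and 5.92 in SW SVC, with the largest rise of a collagen gene past the threshold in this comparison, 2.34 on the log2 scale (SE 0.42). Its neighbour Col4a3 lay between 0.414 and 1.16 CPM in HFD and SW SVC and did not pass. Col4a6 was at 85.7 CPM in LFD, 3.77 and 6.62 in HFD, and 16.2, 19.6 and 19.3 in SW SVC, and rose by 1.82 (SE 0.32). The abundant Col4a1 was at 1974 CPM in LFD, 1051 and 581.6 in HFD, and 1165, 1732 and 1111 in SW SVC, and its log2FC of 0.71 did not pass. Col4a2 was at 1685 CPM in LFD, 679 and 424 in HFD, and 1191, 1620 and 1155 in SW SVC, and its log2FC of 1.26 had an adjusted p of 0.0518 in edgeR. Col15a1, at 936 CPM in LFD, 388 and 151 in HFD, and 385, 558 and 428 in SW SVC, did not pass, and Col18a1, at 514 CPM in LFD, 155 and 128 in HFD, and 272, 302 and 254.5 in SW SVC, rose by 0.96 (SE 0.23). The transmembrane gene Col23a1 rose by 1.62. Col8a1 fell, from 29.6 and 10.6 CPM in HFD to 2.68, 5.79 and 3.29 in SW SVC, with 4.19 in LFD and a log2FC of -2.33 (SE 0.55).

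In the same SVC libraries, 4 of 7 pericyte and smooth muscle markers rose (Pdgfrb, Acta2, Tagln and Notch3) and Rgs5 fell, with list sums of 217 to 375.5 CPM in HFD and 629 to 692 CPM in SW, and 988 CPM in LFD. Of 9 fibroblast and progenitor markers Ly6a and Clec3b rose, with sums of 3269 to 5226 CPM in HFD, 4946 to 6232 CPM in SW and 9526 CPM in LFD. Macrophage markers summed to 11570 to 15440 CPM in HFD, 9164 to 14300 CPM in SW and 4617 CPM in LFD, and Mrc1 and Lpl of 11 fell. Mesothelial markers summed to 988 CPM in the LFD library, 29.4 to 160.5 CPM in HFD and 141 to 183 CPM in SW, and none of 8 passed. The part of these shifts in the collagen values was not tested. Of the genes that act on collagens, against 5.71% higher and 11.7% lower of all genes, 5 of 19 folding genes rose, led by Fkbp10 (1.30, SE 0.21), and Mia3, which serves the export of large cargo from the endoplasmic reticulum, fell by 1.78. Bmp1, Pcolce2 and Adamts2 rose of 7 propeptide processing genes, and Bgn, Fmod and Tnxb rose and Postn fell by 2.80 of 10 fibril partners. Hspg2 and Lamb2 rose of 9 basement membrane partners, while Itga11, Ddr1 and Mrc2 rose and Itga1 and Itgb1 fell of 8 collagen receptors tested.

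The fractions were compared in a fit of all 15 libraries. In SW mice 26 of 38 collagen genes tested were higher in SVC than in adipocytes and 2 were lower, where 35.6% and 32.8% of 17441 genes tested were. The median log2FC was 1.67 over the collagen genes and 0.09 over all genes. Col6a2 was higher by 3.46 on the log2 scale (SE 0.24), Col1a1 by 3.49 (0.29), Col6a1 by 3.32 (0.25), Col1a2 by 3.01 (0.26), Col5a1 by 2.64 (0.22) and Col6a3 by 2.22 (0.32). Col3a1, Col4a1, Col4a2, Col5a3, Col5a2, Col15a1 and Col18a1 were higher by 1.48, 1.46, 1.82, 1.48, 1.03, 1.00 and 1.52. With the correction for GC content the number of higher genes was 18, and Col15a1 had a log2FC of -0.050 and Col4a1, Col4a2, Col5a3 and Col18a1 did not pass. Among the largest differences were Col6a6 (4.80, SE 0.43) and Col6a5 (3.93, SE 0.43). Col2a1, a cartilage collagen, was at 20, 43 and 1 counts in the SVC and at 0 in the 3 adipocyte libraries, and its mean CPM in SVC was at least 7.45-fold higher than the floor of 3 counts per adipocyte library. Col8a1 (-1.47, SE 0.34) and Col28a1 (-1.92, SE 0.58) were lower in SVC, where Col28a1 lay at 0.618, 1.94 and 0.657 CPM against 3.79, 6.61 and 7.44 CPM in adipocytes, each scaled within its fraction.

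Markers differed between the fractions as well. In SW mice 6 of 9 fibroblast and progenitor, 5 of 8 mesothelial, 9 of 11 macrophage and 4 of 4 erythroid markers were higher in SVC, while 6 of 8 endothelial and 8 of 8 adipocyte markers were lower. The macrophage marker Lpl was lower, and of 7 pericyte and smooth muscle markers Pdgfrb and Notch3 were higher and Rgs5 lower. Their part in the collagen values was not tested.

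In HFD mice 7 collagen genes were higher in SVC and 1 lower, where 16.2% and 12.9% of all genes tested were, and the median log2FC was 0.62 over the collagen genes against 0.08 over all. The higher genes were Col1a1 (1.04), Col1a2 (0.80), Col6a2 (0.75), Col14a1 (1.31, SE 0.28), Col4a6 (1.84, SE 0.41, against 3.16, 0.793 and 1.74 CPM in adipocytes), Col11a2 (1.38, with 2.20 and 1.45 CPM in SVC and 0.601, 0.960 and 0.984 CPM in adipocytes) and Col26a1 (2.17, SE 0.76, with 16 and 12 counts in SVC and 3, 4 and 7 in adipocytes). Col12a1 was lower in SVC (-1.50, SE 0.41), at 5.86 and 6.00 CPM against 16.4, 25.1 and 21.1 CPM in adipocytes. The number of higher genes was 2 without the adipocyte library HFD 402, 3 without HFD 401 or HFD 403, 4 without SVC SW 412, and 2 in a fit of the HFD libraries alone. Higher genes of all tested fell too, from 2834 of 17441 to 1737 of 17348 without HFD 402 and 940 of 14743 in the fit of the HFD libraries alone. Col3a1, Col4a1 and Col6a1 had log2FCs of 0.32, -0.48 and 0.36 and did not pass.

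**Figure D5:**
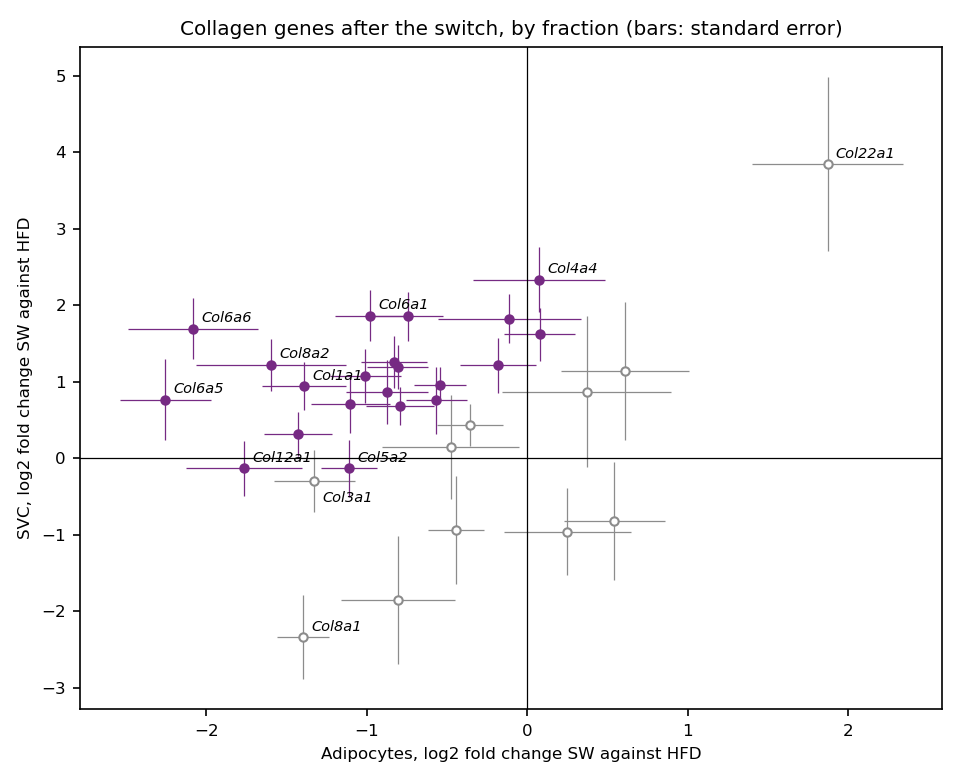
Log2 fold change of SW against HFD in adipocytes (horizontal) and in SVC (vertical) for the 32 collagen genes tested in both fractions, with bars of 1 SE. Filled points are genes whose change differed between the fractions at an adjusted p of 0.05, and most lie at the upper left, lower in adipocytes and higher in SVC.

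In an interaction term, 21 of 38 collagen genes changed differently from HFD to SW in SVC and in adipocytes, each toward a higher value in SVC, where 11.4% of all genes tested were higher and 15.7% lower (edgeR). Of the 32 genes tested in each fraction on its own, 19 had a negative fold change in adipocytes and a positive one in SVC, as had 18.5% of all genes tested in both, which was not tested. The median of the difference was 1.60 over the collagen genes and -0.04 over all genes. The largest differences past the threshold were those of Col6a6 (3.89, SE 0.59), Col6a5 (3.17, SE 0.59) and Col6a1 (2.96, SE 0.36, adjusted p = 0.000797, edgeR). Col6a2, Col1a1, Col1a2, Col4a2 and Col5a1 had differences of 2.71, 2.45, 2.21, 2.21 and 2.12. Col3a1, with a difference of 1.16 (SE 0.44, adjusted p = 0.0665, edgeR), and Col8a1, which fell in both fractions, with -0.76 (adjusted p = 0.265, edgeR), did not pass. The number was 18 to 23 with each library left out and 14 with the correction for GC content. By the same term 4 of 7 pericyte and smooth muscle markers were higher and Rgs5 was lower (-2.35, SE 0.39). Clec3b of 9 fibroblast and progenitor markers and Plin4 of 8 adipocyte markers were higher. Of 11 macrophage markers Adgre1 and Csf1r were higher and Lpl lower, and of 8 endothelial markers Emcn and Egfl7 were lower. The part of these shifts in the collagen values was not tested. With HFD 411 left out, Col6a1, Col6a2, Col1a1 and Col1a2 still passed, while Col5a2, Col5a3 and Col15a1 did not.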

How the data were processed

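RNA of adipocytes and SVC was sequenced. Bowtie2 alignment to the transcriptome and RSEM were used by the authors, and the deposited tables hold the estimated count of each gene, as whole numbers and not normalized. RSEM divides reads that fit several transcripts, so values of similar or overlapping genes are estimates. The submitters' notes name the mm9 build, and versions are not given in the sources used here. Column numbers are in no label, so columns were used as replicates of the group in their name, and p-values measure the spread between these samples. Another 3 columns of values were not used, since their names match no group.

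Counts were fitted with edgeR 4.0.16 (R 4.3.3; TMM factors, filterByExpr with a minimum count of 10, robust quasi-likelihood fit, Benjamini-Hochberg over all genes, threshold 0.05), per fraction and over both fractions, after a test on simulated data. Replicates differed by more than counting noise. A count of 0 allows up to 3 counts. The members, gene lists and tests were chosen with earlier results of these data known. By the rule for named genes, every member is accounted for, and values in every library are given for 13 major chains and for the 3 largest rises and falls past the threshold in each comparison. Alternatives were DESeq2 1.42.0, limma-voom (limma 3.58.1), RLE and upper-quartile factors, other filters, fits of the compared groups alone and fits without each library in turn. Corrections for GC content and length of the longest GENCODE M21 transcript were added after seeing the data.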

Additional observations from a re-analysis of the deposited data

Results flagged for a closer look

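For 21 collagen genes an interaction term in edgeR (Benjamini-Hochberg adjusted) showed unlike changes from HFD to SW in SVC and adipocytes, each toward a higher value in SVC. On the log2 scale, the difference (SVC minus adipocytes) was 2.45 for Col1a1, 2.21 for Col1a2, 2.12 for Col5a1, 1.11 for Col5a2 (1.115 before rounding) and 1.53 for Col5a3 among the fibrillar chains. It was 1.94 for Col4a1 and 2.21 for Col4a2, 2.96 for Col6a1, 2.71 for Col6a2 and 1.88 for Col6a3, and 1.47 for Col15a1 and 1.62 for Col18a1. Some alternative fits that kept every library lost the calls of Col4a1, Col5a2, Col5a3, Col6a3 and Col15a1. The SVC side rests on 2 HFD libraries that were unlike each other. No group held the 4 samples needed to look for a single sample far from the others.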

How the results depend on the processing

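No paired analysis was possible because the numbers in the column names are in no label and are shared by no pair of groups. With each library left out, the number of collagen genes past the threshold ran from 15 to 20 (17 with all libraries) for HFD against LFD in adipocytes, 12 to 19 (19) for SW against HFD, 0 to 2 (1) for SW against LFD and 7 to 14 (11) for HFD and SW against LFD, all in the leading direction. It ran from 0 to 9 (8) for SW against HFD in SVC, 25 to 27 (26) between the fractions in SW mice, 2 to 7 (7) in HFD mice and 18 to 23 (21) for the difference between the fractions. The ranges that draw on HFD SVC include fits with 1 SVC HFD library, where that group has no spread. With DESeq2, 2 genes were higher in SW against LFD adipocytes and 14 in SW against HFD SVC. With the length correction these were 4 and 19, and 17 were higher between the fractions in HFD mice. Of all genes, 1574 were higher in the main fit, 1854 with DESeq2 and 1872 with the length correction for SW against LFD adipocytes. For SW against HFD SVC they were 932, 2473 and 1301. Between the fractions in HFD mice, 2834 were higher in the main fit and 3211 with the length correction. With the GC correction none was higher in SW against HFD SVC (edgeR; 10 had an unadjusted p under 0.05) and 2 were between the fractions in HFD mice, where the unfiltered fit gave 3 and the fit of only the groups compared 2. Of all genes, 1934 were higher between the fractions in HFD mice with the GC correction, 2412 in the unfiltered fit and 940 in the fit of only the groups compared. Col15a1 changed direction between the fractions in SW mice with the GC correction (log2 fold change -0.050). The causes were not tested. With upper-quartile factors the median log2 fold change of all genes for HFD against LFD adipocytes was -0.12, and higher genes were 43.5% of all genes past the threshold instead of 51.5%, while 16 collagen genes were higher. For SW against HFD in SVC, higher genes were 47.4% of those past the threshold with DESeq2 and 43.5% with the length correction instead of 32.7%. In adipocytes, depth limits Col22a1 and Col17a1, which had at most 15 and 28 counts in a library.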
